A study of Mus musculus with 32 samples.

Results

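The caseins are the main proteins of milk, and their genes are the 5 members described here: Csn3 (kappa casein), Csn2 (beta casein), Csn1s1 (alpha-S1 casein), Csn1s2a and Csn1s2b (alpha-S2 caseins). They were taken by symbol from the NCBI gene IDs of the count table, and all 5 were found among its 24454 gene IDs. The calcium-sensitive caseins, which are all but kappa casein, carry clustered phosphoserines that bind calcium phosphate, and kappa casein coats and stabilises the micelles that they form. In the mammary gland their transcription is known to follow prolactin, whose receptor activates JAK2 and STAT5, together with glucocorticoid receptor, C/EBPb, NF1 and ELF5. Csn2 and the alpha caseins are widely used as markers of secretory differentiation of luminal cells.

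The libraries were made from patches of cells that were laser-captured from sections of tumour-bearing mammary gland and of lung in female mice. The labels give their genotype as MMTV-PyMT; R26-CBW; K8-CreERT2. All groups share this genotype: the polyoma middle T oncogene runs from the mouse mammary tumour virus promoter, and a tamoxifen-dependent Cre recombinase driven by keratin 8 switches on 1 colour of the R26-CBW reporter in luminal cells. Every mouse received 5 mg tamoxifen by intraperitoneal injection at 5 weeks of age, and tissue was taken when tumours had reached their largest permitted volume. Groups are normal gland (3 libraries), hyperplasia (5), adenoma (8), carcinoma (9) and pulmonary metastasis (7), and each library is called here by its stage and the number in its label. The normal libraries thus come from mice that carry the oncogene, and normal 28 and normal 30 are pools of patches captured at different places, whereas normal 18 is labelled as taken in the tumour core. No mice without the oncogene were analysed here, and neither the age at collection nor the reproductive state of the mice is stated in the labels. The series states 3 animals and its labels tie no region to an animal, so some regions share an animal. The p-values treat regions as independent, which they are not, and may be too small.

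Libraries held 2688611 to 19585351 counts and 10258 to 17667 genes with a count, and hyperplasia 22, adenoma 51 and metastasis 42 had fewer than 11000. Between 5.20 and 78.9% of counts fell on 1 gene ID that has no symbol. Levels are given as CPM, read counts scaled to a common library size after TMM adjustment, so 3 counts, the floor set for a count of 0, are worth 0.130 to 0.856 CPM. The luminal keratin Krt8 was present in every stage (318 to 856 CPM as stage means). All 8 luminal markers had counts in every library, including hyperplasia 46, carcinoma 53, metastasis 42 and metastasis 58, the libraries whose caseins stand apart from the rest.

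The 5 genes lie together on mouse chromosome 5 (GRCm38.p6, RefSeq), in a stretch of 266 kb. Csn1s1 spans chr5:87666208-87682578 on the plus strand, Csn2 chr5:87692619-87699429 on the minus strand, Csn1s2a chr5:87774450-87788798, Csn1s2b chr5:87808121-87824421 and Csn3 chr5:87925579-87932550, the last 3 on the plus strand. In the GENCODE M21 transcript chosen for each gene the coding sequence is split into 31 exons in Csn1s1, 12 in Csn1s2a, 11 in Csn1s2b, 7 in Csn2 and 3 in Csn3. Every one of these coding exons has a length that is a multiple of 3. The longest stretch of identical bases between the transcripts of any 2 members is 15 bases, between Csn1s2a and Csn2, and longer stretches differ. Csn3 is overlapped on the opposite strand by the long non-coding gene 1700066N21Rik, which had 188 counts over 8 libraries against 2487562 for Csn3. Whether the counting used strand was not stated, so how reads in the overlap were credited to the 2 is not known.

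The upstream sequences are shown because 3 of the 5 genes, Csn1s1, Csn2 and Csn1s2a, have an entry in the RefSeq promoter table (GRCm38.p6). On a log2 scale these 3 also varied most between libraries. The SD of log2(CPM + 1) was 3.04, 3.53 and 2.55 for them, against 1.39 for Csn1s2b and 0.85 for Csn3. Each run gives the 250 bases before the transcript start, 5' to 3' on the strand of the gene, with a match to TTCNNNGAA, the motif known to be bound by STAT5, in capitals. The windows are chr5:87665958-87666207 (plus strand) for Csn1s1, chr5:87699426-87699675 (minus strand) for Csn2 and chr5:87774200-87774449 (plus strand) for Csn1s2a.
Csn1s1: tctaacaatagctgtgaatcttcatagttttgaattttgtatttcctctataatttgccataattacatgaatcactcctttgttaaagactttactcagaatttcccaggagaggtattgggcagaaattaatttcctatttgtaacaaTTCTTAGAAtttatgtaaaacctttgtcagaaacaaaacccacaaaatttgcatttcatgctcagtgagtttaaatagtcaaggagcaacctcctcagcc
Csn2: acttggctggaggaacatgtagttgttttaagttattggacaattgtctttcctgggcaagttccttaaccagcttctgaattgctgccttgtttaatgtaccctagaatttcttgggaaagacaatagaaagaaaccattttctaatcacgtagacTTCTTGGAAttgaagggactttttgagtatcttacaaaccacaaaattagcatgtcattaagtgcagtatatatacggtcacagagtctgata
Csn1s2a: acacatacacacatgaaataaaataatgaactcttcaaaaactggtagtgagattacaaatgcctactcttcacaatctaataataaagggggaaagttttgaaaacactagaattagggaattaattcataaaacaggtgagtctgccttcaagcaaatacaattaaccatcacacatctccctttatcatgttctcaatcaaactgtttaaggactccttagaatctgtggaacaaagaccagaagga
TTCNNNGAA, which is its own reverse complement, was found in Csn1s1 at positions -100 to -92 (TTCTTAGAA) and in Csn2 at -93 to -85 (TTCTTGGAA), counted back from the start. In Csn1s2a it was not found upstream of the RefSeq start, and a match (TTCTTAGAA) lay at 21 to 29 after that start, within the 50 bases that the table adds. Of 32851 windows of 300 bases in that table, 8.30% hold the motif on either strand. The octamer ATGCNAAT, of the kind read by POU factors, was found on the minus strand in Csn1s1 (-54 to -47) and Csn2 (-48 to -41), and 3.15% of windows hold it. Csn1s1 and Csn2 also share the 10 bases ccacaaaatt, at -61 to -52 and at -55 to -46, which overlap the octamers. AGAACA, a short glucocorticoid receptor element, was found in Csn1s2a only (-59 to -54, minus strand; 19.0% of windows), and TATAAA in none of the 3 windows (13.6%). GENCODE M21 places the outermost start of Csn2 inside the printed window (87699630) and that of Csn1s2a downstream of the RefSeq start (87774567). Counted from these starts, the TTCNNNGAA match of Csn1s2a lies upstream and that of Csn2 downstream. Whether the motif is upstream in these genes thus depends on the annotation used. These matches are letters in a window, and binding was not measured.

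Kappa casein was abundant at every stage, including normal gland. Csn3 had counts in 32 of 32 libraries and the fourth highest mean of all gene IDs (rank 4 of 24454, mean 6922 CPM). In normal gland it was at 5941, 2358 and 959 CPM in libraries 18, 28 and 30, and in hyperplasia at 8893, 7479, 14973, 3460 and 10044 CPM in libraries 21, 44, 22, 33 and 46. Both normal pools lie below every other library, and normal 18, which the labels place in the tumour core, lies within the range of the lesions. Without normal 18 the mean of normal gland was 1659 CPM. In adenoma the lowest, median and highest libraries were at 3607, 6610 and 13817 CPM, in carcinoma at 3048, 5018 and 11677 CPM, and in metastasis at 3784, 5869 and 14029 CPM. The lesion stages therefore overlap over most of their range. Stage means ran from hyperplasia (8970 ± 4176 CPM, SD, n = 5) through adenoma (8190 ± 3740, n = 8), metastasis (7172 ± 3893, n = 7) and carcinoma (5741 ± 2717, n = 9) to normal gland (3086 ± 2570, n = 3). No stage differed from its neighbour in that order by more than the SD of the more variable stage. In captured tissue, fewer cells of a type and less RNA per cell cannot be told apart.

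Csn3 did not pass the test in any step between stages. The fitted log2 fold change was 1.54 (SE 0.48) from normal gland to hyperplasia, with an adjusted p of 0.282 in edgeR's quasi-likelihood test with Benjamini-Hochberg adjustment, which is used throughout. The later steps were smaller: -0.13 (SE 0.35, adjusted p = 0.924, edgeR) for adenoma minus hyperplasia and -0.51 (SE 0.30, adjusted p = 0.532, edgeR) for carcinoma minus adenoma. For metastasis minus carcinoma it was 0.32 (SE 0.31, adjusted p = 0.830, edgeR). The size of the first step moved with single normal libraries: without normal 18 the change from normal gland to hyperplasia was 2.44, and without normal 30 it was 1.11.

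**Figure D1:**
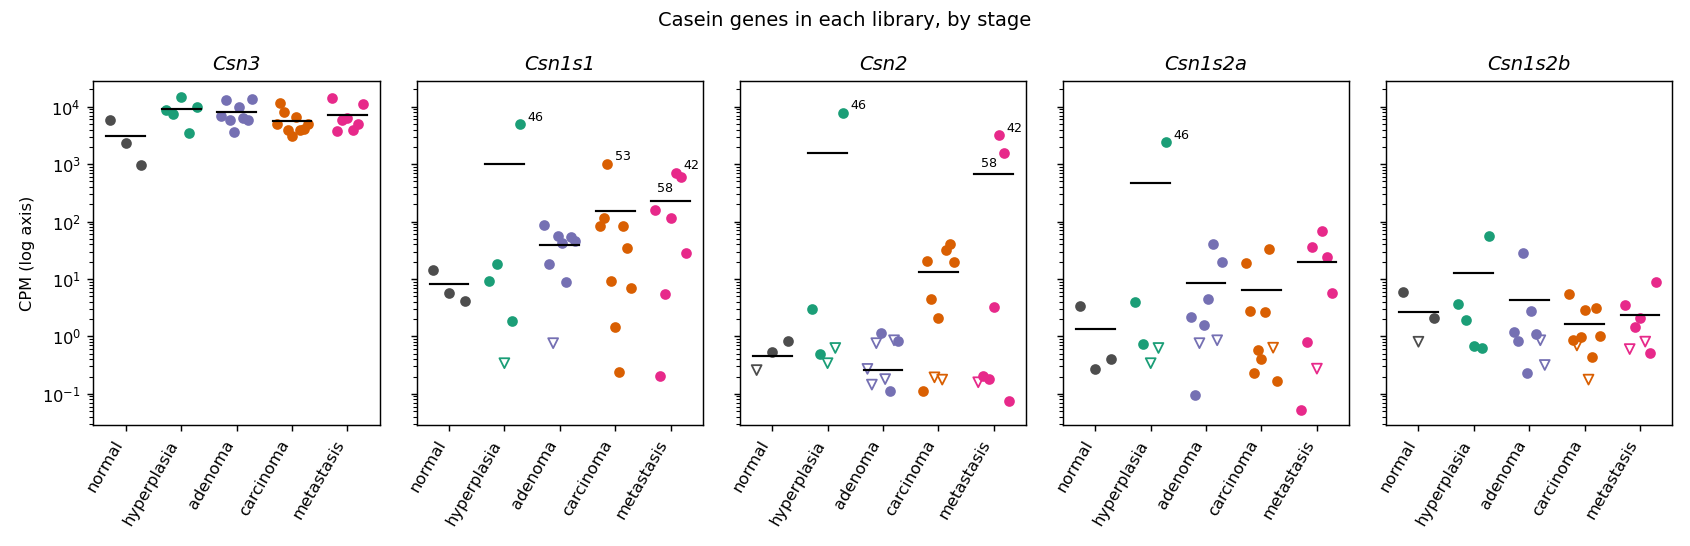
CPM of each casein in every library on a log axis, 1 panel per gene, with 1 point per library and a black bar for the mean of the stage. Open triangles are libraries with 0 counts, drawn at the CPM that 3 counts would have, and numbers mark libraries above 500 CPM in genes other than Csn3; Csn3 stays between 959 and 14973 CPM, while the other panels span several powers of 10.

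Beta casein was near the floor in most libraries and very high in a few. Csn2 had 0 counts in 11 libraries and was over 100 CPM in 3. In normal gland it was at 0, 0.538 and 0.821 CPM in libraries 18, 28 and 30, which are 0, 2 and 4 counts. In hyperplasia it was at 3.02, 0.488, 0, 0 and 7852 CPM in libraries 21, 44, 22, 33 and 46. Hyperplasia 46, with 95369 Csn2 counts, thus stood far above the other 4 libraries of its stage, which overlap normal gland. In adenoma the lowest and the median library were at 0 and the highest at 1.13 CPM, and in carcinoma the lowest, median and highest were at 0, 4.41 and 41.1 CPM. Metastasis ran from 0 over a median of 0.200 to 3158 CPM in metastasis 42 (11686 counts), and metastasis 58 was next at 1565 CPM (15390 counts). The other 5 metastases were at or below 3.29 CPM and overlap every other stage.

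The order of stages for Csn2 depends on the summary. By mean it was hyperplasia (1571 ± 3511 CPM, SD, n = 5), metastasis (675 ± 1240, n = 7), carcinoma (13.4 ± 15.7, n = 9), normal gland (0.453 ± 0.417, n = 3) and adenoma (0.261 ± 0.457, n = 8). By median it was carcinoma at 4.41 CPM, normal gland at 0.538, hyperplasia at 0.488, metastasis at 0.200 and adenoma at 0. The hyperplasia and metastasis means are smaller than their SDs, and without hyperplasia 46 the hyperplasia mean was 0.878 CPM. Without metastasis 42 the metastasis mean was 261 CPM. Of the 9 carcinoma libraries, 6 were above the highest adenoma library.

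Alpha-S1 casein was the second casein to be found nearly everywhere, at lower levels. Csn1s1 was at 14.5, 5.65 and 4.10 CPM in normal 18, 28 and 30, and at 9.07, 18.6, 0, 1.88 and 4977 CPM in hyperplasia 21, 44, 22, 33 and 46. As for Csn2, hyperplasia 46 stood apart and the other hyperplasia libraries overlap normal gland. The lowest, median and highest libraries were at 0, 44.3 and 86.0 CPM in adenoma, at 0.236, 34.5 and 1021 CPM in carcinoma, and at 0.200, 117 and 713 CPM in metastasis. Carcinoma 53 was the library at 1021 CPM (4400 counts), and its Csn2 was at 4.41 CPM, so alpha-S1 casein was high there without beta casein. Metastasis 42 and 58 held 713 and 591 CPM. Without carcinoma 53 the carcinoma mean fell from 151 to 42.1 CPM, and without hyperplasia 46 the hyperplasia mean fell from 1001 to 7.38 CPM.

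The alpha-S2 caseins had the lowest means over all libraries, 83.2 CPM for Csn1s2a and 4.27 CPM for Csn1s2b, although by median Csn2 was lower still (0.344 CPM against 1.19 for Csn1s2a and 1.06 for Csn1s2b). Csn1s2a was at 3.36, 0.269 and 0.410 CPM in normal 18, 28 and 30, and at 4.00, 0.733, 0, 0 and 2391 CPM in hyperplasia 21, 44, 22, 33 and 46. Its highest values elsewhere were 40.6 CPM in adenoma 48, 32.7 CPM in carcinoma 08 and 69.4 CPM in metastasis 42. Apart from hyperplasia 46 the stages overlap. Csn1s2b never passed 56.1 CPM, its value in hyperplasia 46, and its next highest was 27.9 CPM in adenoma 47, where Csn1s1, Csn1s2a and Csn2 had 0 counts. In 7 libraries Csn1s2b had 0 counts.

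Per kb of transcript, which allows genes to be compared, Csn3 was the highest casein in 32 of 32 libraries. In hyperplasia 46 the levels were 6293 CPM per kb for Csn3, 5908 for Csn2, 3528 for Csn1s1, 2599 for Csn1s2a and 69.3 for Csn1s2b. How near Csn3 and Csn2 lie depends on the transcripts chosen (1596 and 1329 bases). By CPM they were at 10044 and 7852. In normal gland the mean was 1934 CPM per kb for Csn3 and 5.73 for Csn1s1, and at most 3.33 for the others. The 5 caseins together took 0.119 to 2.02% of all counts, lowest in metastasis 40 (95% exact binomial interval 0.117 to 0.121%), where the ID without a symbol took 78.9% of counts, and highest in hyperplasia 46 (2.01 to 2.03%). These intervals cover counting error only, since the reads carry no molecular identifiers.

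In 28 of 32 libraries nearly all casein counts were Csn3. The other 4 caseins made up 60.3% of casein counts in hyperplasia 46 (95% exact binomial interval 60.2 to 60.5%), 49.6% in metastasis 42 (49.0 to 50.2%), 30.0% in metastasis 58 (29.6 to 30.3%) and 11.1% in carcinoma 53 (10.8 to 11.4%). In the remaining libraries their share was at most 3.62%, reached in carcinoma 08. The make-up differed among the 4: beta casein was the largest non-kappa part in hyperplasia 46 and in both metastases, and alpha-S1 casein in carcinoma 53.

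**Figure D2:**
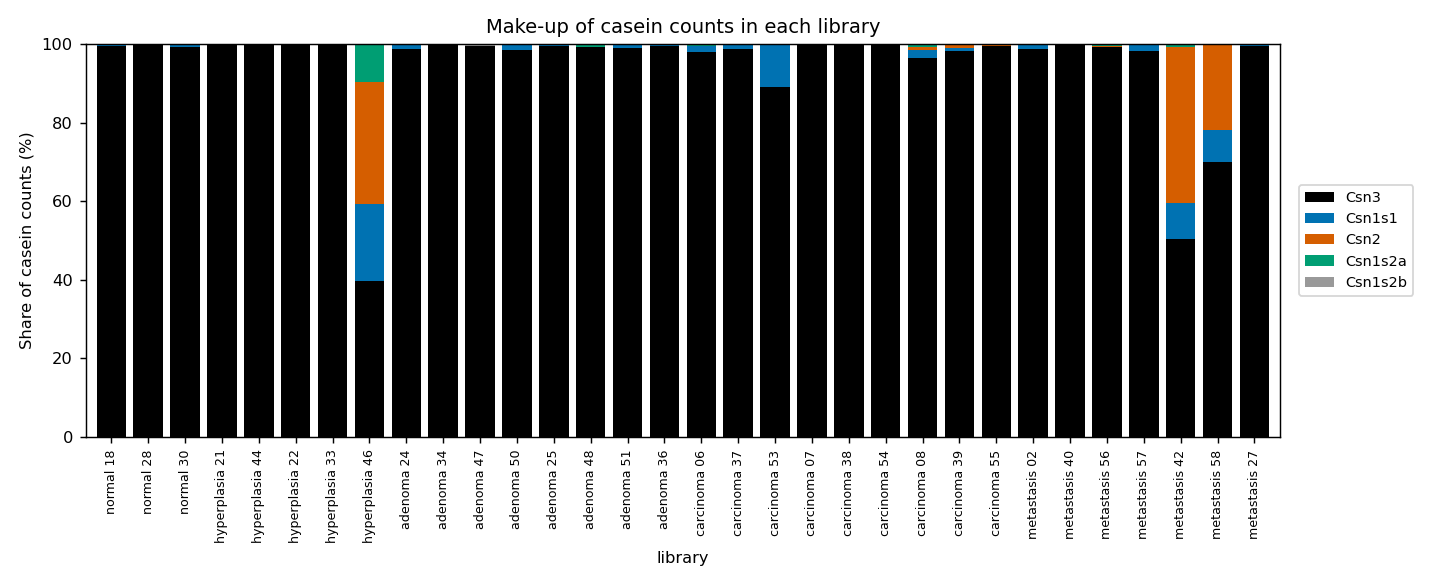
Share of each casein in the summed casein counts of a library, in percent on a linear axis from 0 to 100, 1 bar per library ordered by stage. Csn3 fills nearly the whole bar except in hyperplasia 46, carcinoma 53, metastasis 42 and metastasis 58, where the other caseins make up 60.3, 11.1, 49.6 and 30.0%.

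Whether any stage differs from the others was asked with 1 test over all 5 stages. It called Csn2 (adjusted p = 0.00505, edgeR) and Csn1s2a (adjusted p = 0.0161, edgeR), 2 of 5 caseins, where 3.58% of 19907 tested genes (712) were called, or 284 without normal 28. Csn1s1 (adjusted p = 0.0697, edgeR), Csn3 (0.145) and Csn1s2b (0.727) did not pass. The Csn1s2a call rests on 1 library: without hyperplasia 46 its adjusted p was 0.588 in edgeR, while that of Csn2 was 0.000436. Csn1s1 passed without carcinoma 53 (adjusted p = 0.0322, edgeR), and Csn3 without normal 18 (adjusted p = 0.0454, edgeR).

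Steps from 1 stage to the next gave large fitted changes of the calcium-sensitive caseins that did not pass the test. From normal gland to hyperplasia 0 of 5 caseins were called, where 0% of 19907 genes were called and 12.4% had an unadjusted p under 0.05. Csn2 changed by a log2 fold of 11.93 (SE 3.90, adjusted p = 0.282, edgeR), Csn1s2a by 8.36 (SE 2.97), Csn1s1 by 6.94 (SE 2.50) and Csn1s2b by 2.22 (SE 2.45), and 4 of 5 caseins (all but Csn1s2b) had an unadjusted p under 0.05. DESeq2 called 2 (Csn2, adjusted p = 0.0157, and Csn1s1, 0.0407) of the 4 members for which it gives an adjusted p, with none for Csn1s2a. Over all genes DESeq2 called 483 in this step. Limma voom called 0 of 5, with 2.63 for Csn2, and 105 genes over all. Without hyperplasia 46 the same step was 1.07 for Csn2, -0.25 for Csn1s2a, -0.22 for Csn1s1 and -0.68 for Csn1s2b, so the direction of 3 of the 4 turned. Csn2 had 0, 2 and 4 counts in the normal libraries, so the size of its folds against normal gland is fitted and no bound.

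From hyperplasia to adenoma the same genes were lower, again with 0 of 5 caseins called (0% of genes; 14.8% at an unadjusted p under 0.05). The fitted change was -12.47 (SE 2.47, adjusted p = 0.0963, edgeR) for Csn2, which was the smallest adjusted p of all genes in that step, -5.79 (SE 1.69) for Csn1s2a and -4.68 (SE 1.46) for Csn1s1. These 3 had an unadjusted p under 0.05. With adenoma near the floor for Csn2 (at most 1.13 CPM), the size of its fold is a fitted value and no bound. DESeq2 called Csn2 (adjusted p = 1.48e-05), and 609 genes over all. Limma voom called 0 of 5, with -4.54 for Csn2, and 2 genes over all. Without hyperplasia 46 the values were -1.79 for Csn2, 2.81 for Csn1s2a, 2.37 for Csn1s1 and 1.39 for Csn1s2b (-1.57 with it). The direction of all 3 alpha caseins thus turned when this 1 library was left out.

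From adenoma to carcinoma 0 of 5 caseins were called (0% of genes; 12.6% at an unadjusted p under 0.05). Csn2 was higher by 5.60 (SE 1.92, adjusted p = 0.153, edgeR), and between 5.16 and 6.48 whichever library was left out. It was the only casein with an unadjusted p under 0.05. In adenoma Csn2 had 0 counts in 5 of 8 libraries and at most 1.13 CPM. The size of this fold is thus a fitted value and no bound, and leaving out 1 library cannot show this. Csn1s1 was higher by 1.95 (SE 1.23, adjusted p = 0.579, edgeR), and by 0.10 without carcinoma 53. DESeq2 called none, with 269 genes called over all. Limma voom called 1 of 5, Csn3, with a log2 fold change of -1.59 (adjusted p = 9.25e-13, limma), and 7 genes over all. By edgeR Csn3 changed by only -0.51 (SE 0.30, adjusted p = 0.532), and the Csn3 levels of both stages overlap. The gap between these fits was not tested.

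From carcinoma to metastasis 0 of 5 caseins were called (0.0151% of genes; 10.9% at an unadjusted p under 0.05). Csn2 was higher by 5.65 (SE 1.74, adjusted p = 0.216, edgeR), by 4.23 without metastasis 42, and by 0.13 in limma voom with sample weights. Metastasis 58, at 1565 CPM, stays in the fit without metastasis 42, and no fit left out both. By median Csn2 was lower in metastasis (0.200 CPM) than in carcinoma (4.41 CPM). Csn1s2a was higher by 1.57 (SE 1.35) and Csn1s1 by 0.62 (SE 1.21), and Csn2 alone had an unadjusted p under 0.05. DESeq2 called none, with 186 genes called over all. Limma voom called Csn3 with 1.60 (adjusted p = 6.95e-09, limma), and 19 genes over all. By edgeR Csn3 changed by only 0.32 (SE 0.31, adjusted p = 0.830), and the Csn3 levels of both stages overlap. The gap between these fits was not tested. Against normal gland, carcinoma was higher by 5.06 (SE 2.99) for Csn2, 4.21 (SE 2.12) for Csn1s1 and 0.90 (SE 0.44, adjusted p = 0.608, edgeR) for Csn3, with 0 of 5 called (0.00502% of genes; 8.17% at an unadjusted p under 0.05), by DESeq2 and by limma voom also 0. Csn3 was the 1 casein there with an unadjusted p under 0.05. The steps share stages: adenoma minus hyperplasia and hyperplasia minus normal both use hyperplasia 46.

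**Figure D3:**
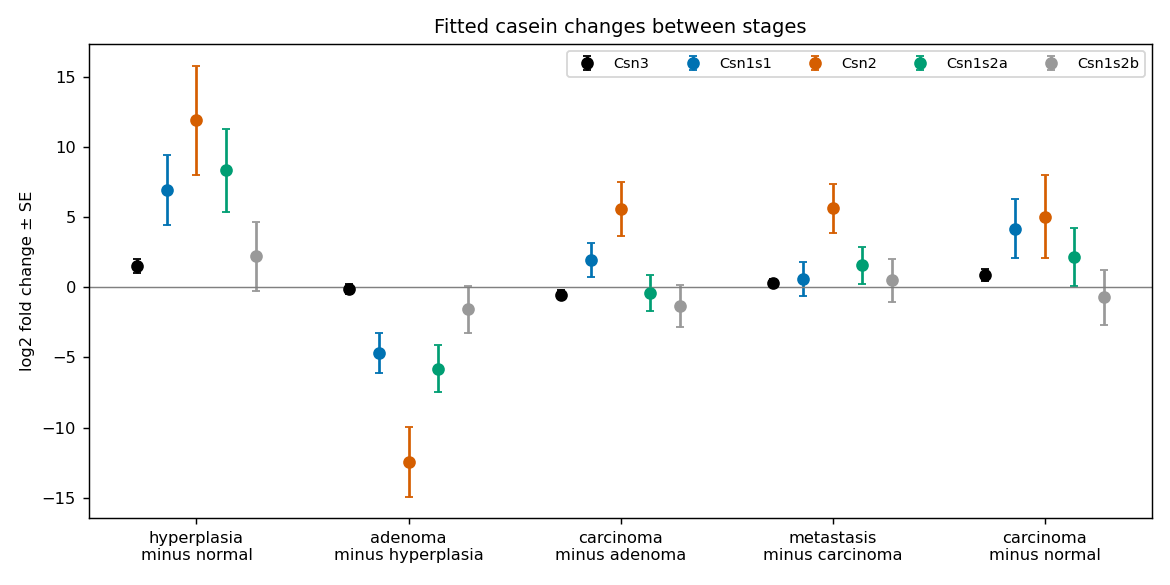
Fitted log2 fold changes of the 5 caseins between stages from edgeR, with 1 SE on each side, and a line at 0. Csn3 stays between -0.51 and 1.54, while Csn2 spans 11.93 for hyperplasia minus normal to -12.47 for adenoma minus hyperplasia, both with hyperplasia 46 in the fit.

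The position of the captured region within a stage gave further contrasts. Hyperplasia 46 was the only hyperplasia region labelled as outside the tumour, so position and this 1 library cannot be told apart. The 3 core regions of hyperplasia held 3.02, 0 and 0 CPM of Csn2, and the border region 0.488 CPM. Adenoma had 2 regions outside the tumour, at 0 and 1.13 CPM of Csn2 and at 18.6 and 56.5 CPM of Csn1s1, against an adenoma core range of 43.1 to 86.0 CPM for Csn1s1, so 1 lay below the core range and 1 within it. The level of hyperplasia 46 was thus not seen in the other regions outside the tumour.

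Over both early stages, outside minus core gave a log2 fold change of 9.10 for Csn2 (SE 2.16, adjusted p = 0.557, edgeR; a fitted value that is no bound, since adenoma core was at 0), 4.85 for Csn1s1 (SE 1.29) and 4.60 for Csn1s2a (SE 1.45). No casein was called (0 of 5, with 0% of 22676 genes called and 5.59% at an unadjusted p under 0.05), although these 3 had an unadjusted p under 0.05, and DESeq2 and limma voom also called 0. Hyperplasia 46 could not be left out of this contrast, since it is the 1 hyperplasia region outside the tumour. In adenoma alone, a contrast added after the data were seen, the change was -0.70 for Csn1s1 and -1.53 for Csn1s2a. Csn2 had 0 counts in all 3 adenoma core libraries, so no fold is given for it.

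At the carcinoma border beta casein was above 10 CPM in every library. Csn2 was at 32.5, 41.1 and 19.5 CPM in the border libraries carcinoma 08, 39 and 55, and in the 6 core libraries its lowest, median and highest values were 0, 1.11 and 20.96 CPM. The groups overlap through carcinoma 37, a core library at 20.96 CPM. Csn2 was higher at the border by 2.74 (SE 1.51, adjusted p = 0.772, edgeR), and by 4.56 without carcinoma 37. Csn1s1 was lower at the border by a log2 value of -2.30 (SE 1.41), which shrank to -0.03 without carcinoma 53. Of 5 caseins 0 were called here (0% of genes; 5.71% at an unadjusted p under 0.05), 0 had an unadjusted p under 0.05, and DESeq2 and limma voom called 0.

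In adenoma, border minus core was 3.12 (SE 1.74) for Csn1s2a and 0.21 (SE 0.45) for Csn3, with 0 of 5 called (0% of genes; 9.68% at an unadjusted p under 0.05) and 0 by DESeq2 and limma voom, and 0 at an unadjusted p under 0.05. In the lung, Csn3 was at 14029, 4007 and 11127 CPM in the centre libraries metastasis 02, 42 and 27, and at 3784, 5869, 6289 and 5099 CPM in the border libraries 40, 56, 57 and 58. Both highest values are central, and metastasis 42 lies among the border values. Border minus centre was -0.89 for Csn3 (SE 0.42, unadjusted p = 0.0388, adjusted p = 0.547, edgeR), the only casein with an unadjusted p under 0.05, and 0 of 5 were called (0% of genes; 8.80% at an unadjusted p under 0.05), 0 also by DESeq2 and limma voom. The high Csn2 libraries were 1 of each kind: metastasis 42 from the lung centre and metastasis 58 from the lung border.

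**Figure D4:**
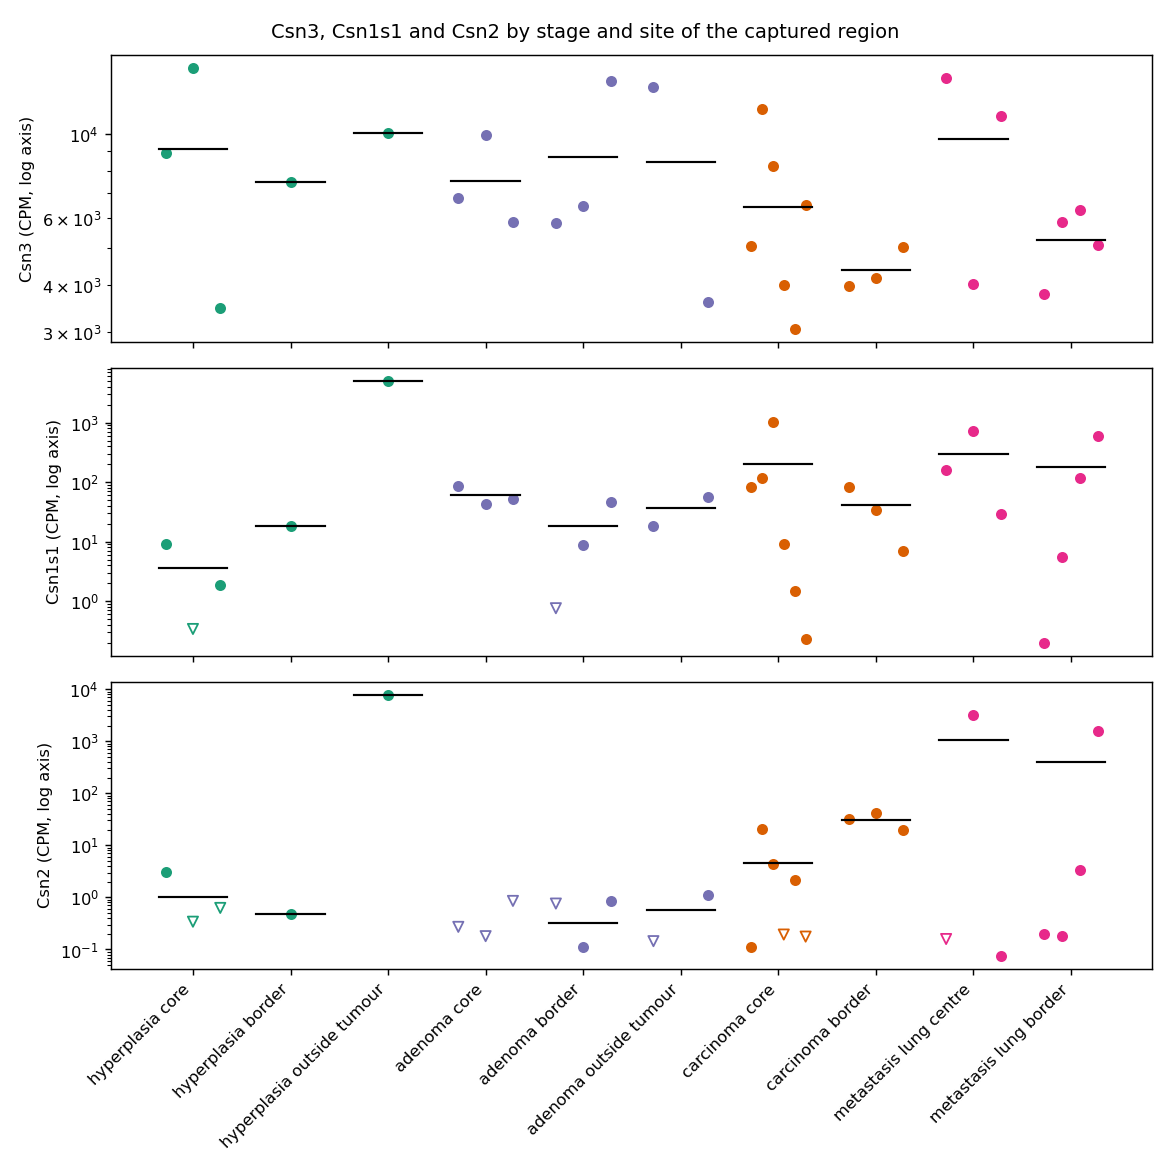
CPM of Csn3, Csn1s1 and Csn2 on log axes by stage and position of the captured region, with 1 point per library, a black bar for the mean and open triangles for libraries with 0 counts at the CPM of 3 counts. All 3 adenoma core libraries are at 0 for Csn2, the 3 carcinoma border libraries lie between 19.5 and 41.1 CPM, and the single hyperplasia library from outside the tumour is at 7852 CPM.

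Patches of 1 reporter colour were captured, but patches that share a colour need not share a clone, and no label names a clone. Of 18 RFP, 7 YFP and 5 GFP libraries and 2 pools, hyperplasia 46 was GFP and carcinoma 53, metastasis 42 and metastasis 58 were RFP. The other 4 GFP libraries were between 0 and 3.02 CPM of Csn2. Colours are spread unevenly over stages and were not tested.

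Other milk proteins were present in most libraries, also where Csn2 was at 0. Of the 17 milk protein genes measured of 18 listed, 0 were called in any stage or position comparison by edgeR. Over stages 3.58% of all genes were called. In that test 6 of the 17 had an unadjusted p under 0.05, against 20.9% of all genes. The most abundant were Trf (transferrin, an iron carrier), Lalba (alpha-lactalbumin, the cofactor of lactose synthase), Spp1 (osteopontin), Mfge8 (a milk fat globule protein), Ltf (lactoferrin) and Plin2 (a lipid droplet coat protein). Lalba averaged 756 CPM in normal gland and 2821, 3953, 2401 and 1911 CPM in the lesions from hyperplasia to metastasis (adjusted p over stages = 0.0551, edgeR). It was at 4783 CPM in hyperplasia 46, 3616 in metastasis 42 and 2083 in metastasis 58, and at 8961 CPM in adenoma 34, which had 0 Csn2 counts. Ltf was at 2023 CPM in hyperplasia 46 against a stage mean of 838 CPM, and Trf at 8759 against 5365 CPM. Wap (whey acidic protein), named after its values were seen, was at 924 CPM in hyperplasia 46 against a stage mean of 219 CPM, and at 131 and 145 CPM in metastasis 42 and 58 against 132 CPM. All these stage means include the libraries set beside them. Summed, the 17 genes were at 18498 CPM in hyperplasia 46, below the 20784 CPM of hyperplasia 22. In metastasis 42 and 58 they summed to 13352 and 11398 CPM, against a stage median of 12101 CPM.

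Of 14 genes of the prolactin pathway 0 were called in any comparison by edgeR, where 3.58% of all genes were called over stages. Over stages 2 had an unadjusted p under 0.05, against 20.9% of all genes. With so few genes called at all, this does not show that the pathway was alike between stages. Prlr, the prolactin receptor, was at 222 CPM in hyperplasia 46, 315 in metastasis 42 and 86.9 in metastasis 58, against stage means of 94.7 to 217 CPM. Stat5a, the main STAT of the pathway in this gland, was at 83.7 CPM in hyperplasia 46, 77.4 in metastasis 58 and 1.35 in metastasis 42, so a Csn2 of 3158 CPM went with almost no Stat5a counts there. Socs2, an inhibitor that STAT5 induces, was at 274 CPM in hyperplasia 46, 18.9 in metastasis 58 and 0.270 in metastasis 42. Stat5b was at 78.6, 32.2 and 22.4 CPM in hyperplasia 46, metastasis 58 and metastasis 42. Metastasis 42 also had one of the lowest numbers of detected genes (10383), and the part of that in these values was not tested.

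Of 20 transcription factors known to act on casein genes, 1 was called over stages, a share near the 3.58% of all genes: Cebpd, the C/EBP delta factor (adjusted p = 0.0344, edgeR), which averaged 82.2 CPM in normal gland, 207 in hyperplasia and 23.1, 30.1 and 49.2 in the 3 later stages. It was at 46.1 CPM in hyperplasia 46, below its stage mean. Elf5, a luminal progenitor factor that acts with STAT5, was at 208 CPM in hyperplasia 46, 504 in metastasis 42 and 233 in metastasis 58, against stage means of 139 to 329 CPM. Nfib, the most abundant factor of the list, was at 1615, 1090 and 442 CPM in the same libraries. None of 11 genes of casein phosphorylation and calcium transport was called by edgeR over stages, with 0 at an unadjusted p under 0.05. Of all genes 3.58% and 20.9% were. Fam20a, a partner of the kinase that phosphorylates caseins, was the most abundant of these, with stage means of 105 to 210 CPM.

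**Figure D5:**
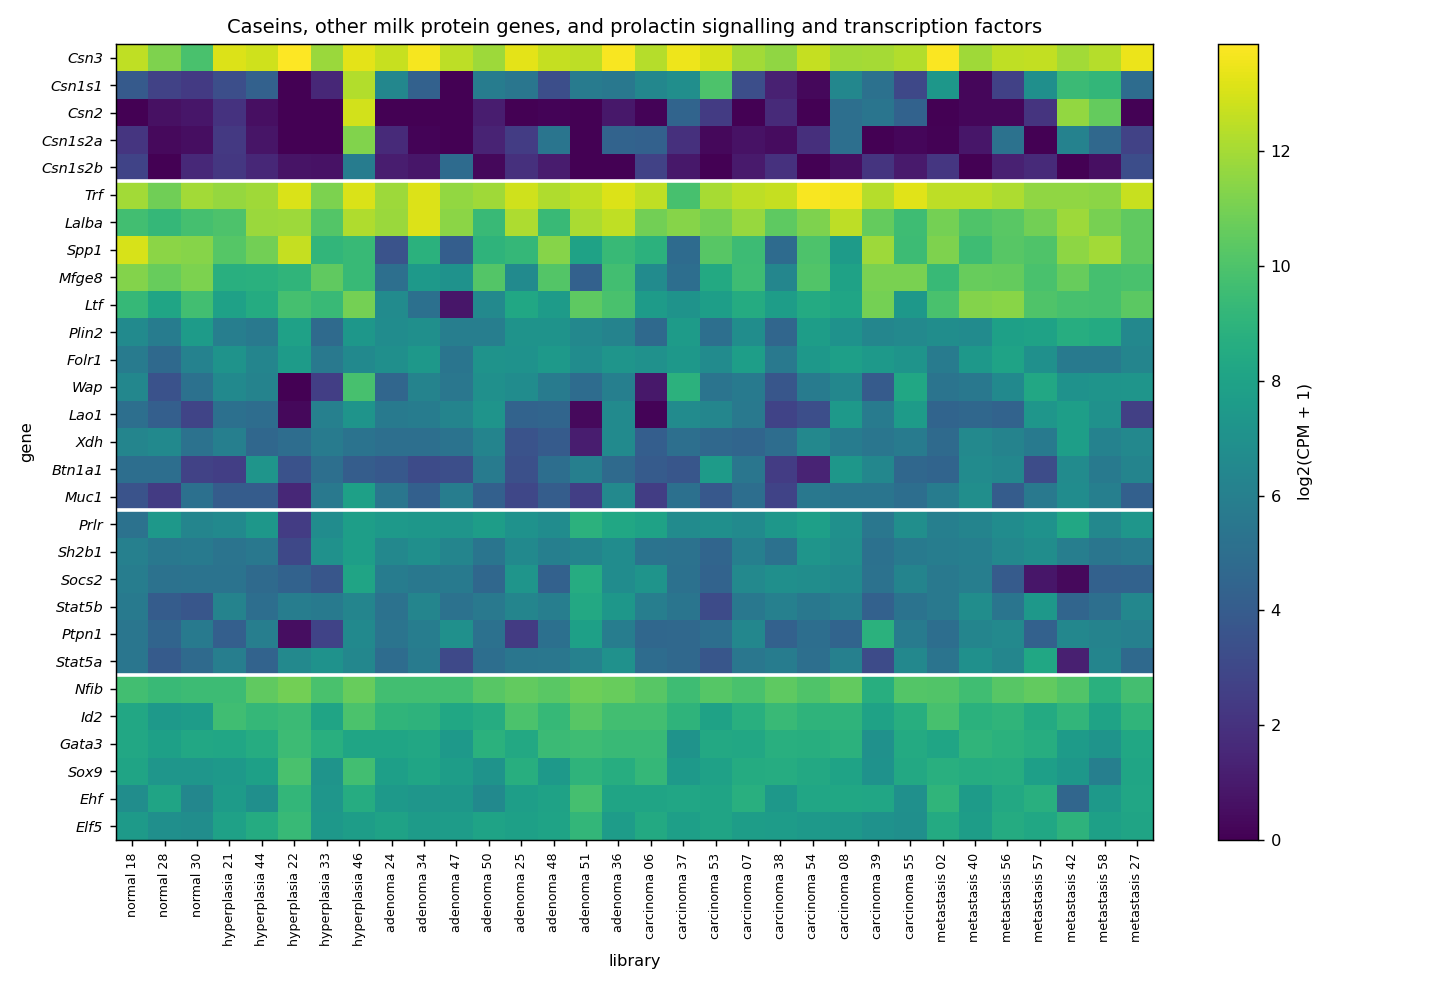
log2(CPM + 1) in every library, ordered by stage, of the 5 caseins, the other milk protein genes that average at least 20 CPM, and the 6 most abundant genes each of the prolactin and the transcription factor list, in blocks divided by white lines. Csn2, Csn1s1 and Csn1s2a are bright together in hyperplasia 46, while Trf, Lalba and Csn3 are bright across nearly all libraries.

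Genes between the caseins on the chromosome peaked in other libraries than the caseins. Within the span from Csn1s1 to Csn3, Prr27, Gm7337, Odam, 1700066N21Rik and BC037156 had mean levels of 2.26, 10.8, 1.32, 1.38 and 0.127 CPM. Their highest values were 54.4 CPM in normal 30, 222 in metastasis 56, 19.8 in adenoma 47, 18.3 in normal 28 and 1.78 in hyperplasia 21, so the peak of Gm7337, a transcribed pseudogene, lay above that of Csn1s2b. None of these peaks was in a library with high Csn2. Of the 14 genes measured around the cluster 2 were called over stages by edgeR (3.58% of all genes): Smr3a, which had 103 counts in 6 libraries, and Jchain, a plasma cell gene.

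Markers of other cell types were set beside the libraries with high caseins. In hyperplasia 46 the 8 basal and myoepithelial markers summed to 1.73 CPM (hyperplasia range 1.73 to 318), the 8 adipocyte markers to 0.329 CPM and the 8 luminal markers to 3101 CPM (range 1389 to 3375). Its 8 lung epithelial markers summed to 62.6 CPM, of which Sftpd gave 62.2, with Sftpc, Sftpa1 and Sftpb at 0. That sum and the 27.3 CPM of its lymphoid and plasma cell markers were the highest of the hyperplasia libraries. In metastases the lung markers summed to 412 to 4627 CPM, against at most 62.6 in the other stages. Over stages 7 of 8 were called by edgeR, where 3.58% of all genes were called. They summed to 1062 CPM in metastasis 42 and to 412 CPM, the lowest of all 7, in metastasis 58, so of the 2 metastases with high Csn2, 1 had the lowest lung content of its stage. Metastasis 42 had the highest sums of its stage for endothelium (287 CPM), fibroblasts and matrix (213 CPM) and adipocytes (342 CPM, all of it Plin4, with 7 of 8 adipocyte markers at 0), and metastasis 58 the highest for basal and myoepithelial cells (224 CPM). The part of these cells in the casein levels was not tested. In carcinoma 53 the lung markers summed to 14.6 CPM and the luminal ones to 2487 CPM. In the 3 normal libraries adipocyte markers summed to 81.0, 383 and 723 CPM, against 0 to 342 CPM elsewhere, so normal 28 (81.0 CPM) lay within the range of the lesions. Fibroblast and matrix markers summed to 752 to 3431 CPM in normal gland and to 27.97 to 2564 CPM elsewhere, so these ranges overlap too. The part of adipocytes and fibroblasts in the lower Csn3 of the normal pools was not tested. Of the adipocyte markers 6 of 7 tested were called over stages by edgeR, and of the fibroblast and matrix markers 3 of 8. The other markers, of endothelium, macrophages, lymphoid and plasma cells and red blood cells, held 1 gene called over stages, Jchain.

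Across libraries the caseins were only weakly alike by the rank of their levels. Spearman's rho of log2(CPM + 1) over the 32 libraries, which share their scaling and in part their animals, was highest between Csn1s1 and Csn2 (0.46) and was -0.21 between Csn2 and Csn3. Between Csn1s1 and Csn1s2a it was 0.32 and between Csn1s2a and Csn2 0.33. Pearson's r of the same values was higher for these pairs: 0.66 for Csn1s1 and Csn2, 0.63 for Csn1s2a and Csn2 and 0.53 for Csn1s1 and Csn1s2a. For the other pairs it was at most 0.31. Hyperplasia 46, where Csn1s1, Csn1s2a and Csn2 are all high, is part of these values. Without it rho was 0.40 for Csn1s1 and Csn2. In sparse counts such values are weak. The genes most like each casein, among the 7294 that averaged at least 20 CPM and had a count in at least 16 libraries, were not milk genes with 1 exception. For Csn3 they were Cdc42 (rho 0.78), Rps27l (0.77), Ndufb8 (0.77), Gm12657 (0.75) and Txn1 (0.74). For Csn2 they were Med16 (0.63), Tepsin (0.59), Lao1 (0.58), Recql (0.58) and Ap1s1 (0.57), of which Lao1 encodes an amino acid oxidase of milk. For Csn1s1 they were Recql (0.64), Arhgap42, Perp, Cdv3 and Topors, for Csn1s2a Ahr (0.69), Ceacam1, Cct4, Taf7 and Slc5a8, and for Csn1s2b Slc22a17 (0.73), Rilpl1, Naa40, Zmym1 and Dynlt3.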

How the data were processed

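The deposited table holds raw counts per NCBI gene ID, whole numbers without normalization by the authors, for 32 libraries whose column names match the stage and number of the sample titles. The submitters' processing notes name STAR and mm10, and per the labels' protocols cDNA was made from polyadenylated RNA and amplified by Smart-seq2 chemistry from laser-captured cells of fixed 7 µm sections. The counting program, its strand setting and its treatment of multi-mapped reads were not given in the sources used here. RefSeq (GRCm38.p6) gave a symbol for 24374 of 24454 IDs and none for 80.

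Genes were filtered with filterByExpr (19907 kept for stages, 22676 for stage and position), scaled by TMM and tested with edgeR's glmQLFit and glmQLFTest on all 32 libraries together (common dispersion 2.64 and 2.35). Tests were two-sided, with Benjamini-Hochberg adjustment over all kept genes and a threshold of 0.05. CPM use TMM effective library sizes, and levels per kb use the longest principal GENCODE M21 transcript. Regions are tied to no animal, so no animal term could be fitted, and p-values are taken against the spread between regions, not between animals. R 4.3.3, edgeR 4.0.16, limma 3.58.1, DESeq2 1.42.0 and Python 3.11.15 were used, and the fit was tested on simulated data.

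Alternatives covered scaling, tool, filter, detected genes as a covariate, the samples in the fit and leaving out every library once (except hyperplasia 46 for outside minus core, which needs it). The members, the gene lists and the tests were chosen with earlier results of these data known. Genes named were the 5 caseins, the 5 genes most like each of them, list members that passed a test or otherwise up to 6 per list by mean CPM of 20 or more, and genes between the outermost caseins; single markers given beside a result and Wap were named after their values were seen.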

Additional observations from a re-analysis of the deposited data

Results flagged for a closer look

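Of 30 pairs of a casein and a group of 4 to 10 libraries, 11 held a library far from the others, by the gap to its nearest neighbour as a share of the range of the group. Chance gives about 5% of groups where values are normally distributed; CPM are skewed and some groups lie within others, so the count is not read against that share. Hyperplasia 46 accounted for 4 of them: Csn1s1 at 4977 CPM, Csn1s2a at 2391 CPM, Csn1s2b at 56.1 CPM and Csn2 at 7852 CPM. It held 15226553 counts and 13236 detected genes and was the 1 hyperplasia region outside the tumour. Csn1s1 in carcinoma 53, at 1021 CPM, stood apart both among all carcinomas and among carcinoma core libraries. Within the carcinoma core, Csn1s2a in carcinoma 06 (18.7 CPM) and Csn2 in carcinoma 37 (20.96 CPM) also stood apart. Csn2 in metastasis 58 was at 1565 CPM among lung border libraries. Csn1s2b stood apart in adenoma 47 at 27.9 CPM and in metastasis 27 at 8.83 CPM. Csn2 in metastasis 42 (3158 CPM) did not stand apart within metastasis, where metastasis 58 lay near it.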

How the results depend on the processing

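No paired analysis was possible because the replicate numbers in the labels are unique to a library and no 2 groups share one. The number of caseins called changed under these settings: hyperplasia minus normal 2 by DESeq2, adenoma minus hyperplasia 1 by DESeq2 and 1 with library totals, carcinoma minus adenoma 1 and metastasis minus carcinoma 1 by limma voom, early lesions outside the tumour minus core 1 with library totals, all against 0, and the test over stages 1 to 3 against 2 with 1 library left out. With library totals, Csn2 passed for adenoma minus hyperplasia (adjusted p = 0.0424) and for outside minus core (0.0451), and without a filter Csn1s1 passed over stages (0.0296, all edgeR). Of 378 values under other settings 22 turned direction, none of them past the threshold. By limma voom these were adenoma minus hyperplasia 0.54 for Csn1s1 and 0.52 for Csn3, carcinoma minus adenoma -0.46 for Csn1s1, adenoma border minus core -0.33 for Csn1s2b and -0.11 for Csn3, carcinoma border minus core 1.25 for Csn1s1, -0.17 for Csn1s2a and 0.32 for Csn1s2b, and lung border minus centre 1.89 for Csn1s2a and 4.32 for Csn2. Without the 3 libraries of few detected genes, which include metastasis 42, they were 0.21 for Csn3 (adenoma minus hyperplasia), -0.16 for Csn1s1 (metastasis minus carcinoma), and for lung border minus centre 0.91 for Csn1s1, 2.45 for Csn1s2a and 13.11 for Csn2. With detected genes as a covariate Csn1s2a was 0.73 for carcinoma minus adenoma. For outside minus core, Csn3 was -0.0518 with DESeq2 size factors and by DESeq2 and -0.0415 with library totals, and in adenoma alone Csn1s1 was -0.70, Csn1s2a -1.53 and Csn1s2b -1.32. The cause of these turns was not tested. With 1 library left out, 24 of 1435 values turned, none past the threshold; the ranges that crossed 0 were, for hyperplasia minus normal, -0.22 to 7.68 (Csn1s1), -0.25 to 10.39 (Csn1s2a) and -0.68 to 3.60 (Csn1s2b); for adenoma minus hyperplasia, -5.00 to 2.37 (Csn1s1), -6.86 to 2.81 (Csn1s2a), -3.83 to 1.39 (Csn1s2b) and -0.31 to 0.13 (Csn3); for carcinoma minus adenoma, -1.43 to 0.66 (Csn1s2a) and -1.85 to 0.91 (Csn1s2b); for metastasis minus carcinoma, -0.16 to 2.49 (Csn1s1) and -0.38 to 1.004 (Csn1s2b); for carcinoma minus normal, -1.28 to 0.68 (Csn1s2b); for adenoma border minus core, -1.25 to 3.95 (Csn1s2b) and -0.22 to 0.46 (Csn3); for carcinoma border minus core, -5.14 to 3.01 (Csn1s2a) and -1.28 to 0.67 (Csn1s2b); for lung border minus centre, -2.86 to 0.91 (Csn1s1), -1.54 to 2.42 (Csn1s2a) and -9.63 to 13.07 (Csn2); and for outside minus core, from 31 fits that all hold hyperplasia 46, -0.46 to 0.48 (Csn3). Over all genes, the test over stages called 712, and 284 (without normal 28) to 907 with 1 library left out, 126 without the 3 libraries of few detected genes and 3717 without a filter. In single contrasts, DESeq2 called 483, 609, 269, 186 and 177 genes in the 5 stage comparisons (in the order of the report, carcinoma minus normal last) and 1297, 435, 947 and 2011 for adenoma, carcinoma, lung and outside minus core; limma voom called 105, 2, 7, 19 and 316, and 35, 5, 12 and 37. In fits of only the 2 stages compared, Csn2 fell under the filter in the first 3 steps, and DESeq2 gave no adjusted p for Csn2 between positions and for Csn1s2a between stages. Stage means moved by less than 1 SD between libraries under other scalings (50 values). That limit is wide, since the SD can exceed the mean, as for Csn2 in hyperplasia (1571 ± 3511 CPM). Without the gene ID of highest share, the Csn3 mean was 4628 CPM in normal gland (3086 with it) and 12557 CPM in hyperplasia (8970 with it). At 0.130 to 0.856 CPM for 3 counts, Csn2 near 0 limits any fold between those libraries.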
